A study of Mus with 3 samples.

Results

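Retnla-high alveolar type 2 cells were 232 of the 14441 cells kept in this single-cell RNA series of mouse whole lung. They were chosen by a gate on each cell's own UMIs (unique molecules). A cell needed Sftpc at 2% of its UMIs or more, at least 1 UMI of Sftpb, Scgb1a1 below 2% and Retnla at 1% or more. The same gate with Retnla below 1% gave 1193 cells, called the other Sftpc cells here and used for contrast. The gate was set with results of these data known, and it used the levels of these 4 genes, so those levels are given as a description only. Slc26a4, Chia1 and Il33 were named as markers of these cells when the gate was proposed, and their levels are a description too.

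There were 3 groups of female mice aged 6 to 12 weeks, namely DJ-1 knockout mice challenged with ovalbumin (DJ-1 KO OVA), wild-type mice challenged with ovalbumin (WT OVA) and wild-type mice given PBS in its place (WT PBS). Ovalbumin is a model allergen, and DJ-1 is the redox-sensitive protein encoded by Park7. Each group was 1 library of total lung cells pooled over 3 mice, so mice cannot be told apart and differences between groups have no replicate check. No test was possible for that reason, and brackets hold 95% intervals that cover counting error only, namely exact Poisson for levels, exact conditional binomial for ratios and Clopper-Pearson for shares of cells. No DJ-1 KO group with PBS was analysed here, and strain and challenge schedule are not given in the sources used here. WT PBS was taken as PBS from its treatment label, although OVA challenge stands in its title.

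Park7, the targeted gene, was low on both sides of the gate in DJ-1 KO OVA. It had 24.3 CPM (counts per 1000000 UMIs of the cells summed) in Retnla-high cells and 21.6 CPM in other Sftpc cells of DJ-1 KO OVA, 102 and 101 CPM in WT OVA and 120.3 CPM in WT PBS. DJ-1 KO OVA was at 0.239 (0.155 to 0.370) of WT OVA in Retnla-high cells and 0.214 (0.116 to 0.362) in the others. The kit reads 3′ ends, and a tag outside a deleted part would still be counted.

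Alveolar type 2 cells line the alveoli, secrete surfactant lipids and proteins, and act as progenitors of the thin type 1 cells. Retnla encodes a small secreted protein of the resistin-like family, which in mouse lung is induced by interleukin 4 and interleukin 13 through the transcription factor STAT6, in macrophages and in epithelium. Allergen challenge of mouse airways is known to raise these cytokines, and pendrin (Slc26a4) and acidic chitinase (Chia1) are known as further epithelial targets of them.

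Retnla-high cells made up most of the Sftpc cells of DJ-1 KO OVA lungs, a small share of those of WT OVA lungs and none of those of WT PBS lungs. They were 190 of 281 Sftpc cells in DJ-1 KO OVA, or 67.6% (61.8 to 73.1). They were 42 of 831 in WT OVA, or 5.05% (3.67 to 6.77). They were 0 of 313 in WT PBS, or 0% (0 to 1.17). Sftpc cells as a whole were 6.33% of the kept cells in DJ-1 KO OVA, 13.6% in WT OVA and 8.01% in WT PBS. Cells were thinned to 1000 UMIs each, because depth differed, and 187 of 273 Sftpc cells in DJ-1 KO OVA, 45 of 830 in WT OVA and 0 among 308 in WT PBS then passed the gate. Fewer cells of one kind and a lower recovery of that kind cannot be told apart in these libraries.

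The DJ-1 KO OVA and WT PBS libraries shared 371 cell barcodes, against 5 shared by DJ-1 KO OVA and WT OVA and 6 by WT OVA and WT PBS. Of each pair shared by DJ-1 KO OVA and WT PBS, the cell with fewer UMIs was left out, which took 65 cells from DJ-1 KO OVA and 306 from WT PBS. Of the Retnla-high cells of DJ-1 KO OVA, 70 had such a barcode, against 7 of its 91 other Sftpc cells. Without both cells of every shared barcode, 120 of 204 Sftpc cells of DJ-1 KO OVA were Retnla-high, or 58.8% (51.7 to 65.6). With both cells kept, 59 of 379 Sftpc cells of WT PBS passed the gate. All 59 had the barcode of a Retnla-high cell of DJ-1 KO OVA, and they held a median of 626 UMIs, against a median of 13309 UMIs in those partner cells.

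**Figure D1:**
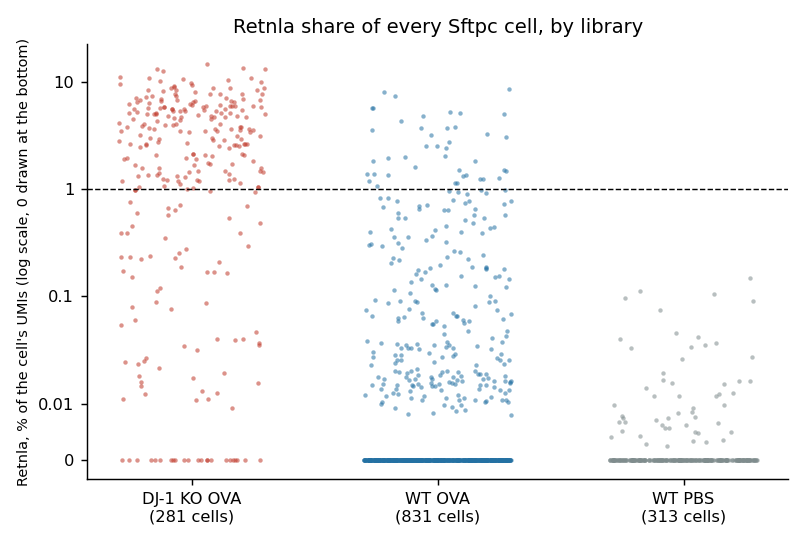
Retnla share of the UMIs of every Sftpc cell (points, vertical log axis with 0 drawn at the bottom) in the 3 libraries, with the 1% limit of the gate as a dashed line. In DJ-1 KO OVA 190 of 281 cells lie above the line and reach 14.7%, in WT OVA 42 of 831 reach 8.51%, and in WT PBS no cell passes 0.147%.

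Retnla took 1.02% to 14.7% of the UMIs of the Retnla-high cells in DJ-1 KO OVA, with a median of 4.34% and quartiles of 2.44% and 6.26%. In WT OVA it took 1.06% to 8.51%, with a median of 2.20% and quartiles of 1.38% and 3.74%. In the other Sftpc cells the median was 0.0388% in DJ-1 KO OVA, 0 in WT OVA and 0 in WT PBS, where the highest cell stood at 0.147%. The shares run on without a gap at the limit. In DJ-1 KO OVA 5 cells lay from 1% to 1.1% and 5 from 0.9% to 1%, and in WT OVA 1 cell lay from 1% to 1.1% and 6 from 0.9% to 1%. The lowest Retnla-high cells stood at 1.02% in DJ-1 KO OVA while those of WT OVA began at 1.06%, and the highest of the other Sftpc cells at 0.990% and 0.985%.

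Summed over cells, Retnla stood at 49788 CPM in the Retnla-high cells and 1793 CPM in the other Sftpc cells of DJ-1 KO OVA. In WT OVA it stood at 29775 CPM in the Retnla-high cells and 590.1 CPM in the others, and the Sftpc cells of WT PBS stood at 45.7 CPM. Free RNA was read from B cells, which are not known to make Retnla. Of these, 37.0% held a Retnla UMI in DJ-1 KO OVA, 7.84% in WT OVA and 0.441% in WT PBS, at medians of 1192, 1353 and 3094 UMIs. In the other Sftpc cells 74.7% did in DJ-1 KO OVA, 30.0% in WT OVA and 17.6% in WT PBS, at medians of 7481, 6874 and 14207 UMIs. Past the 1% limit lay 1 of 322 B cells in DJ-1 KO OVA, 2 of 970 in WT OVA and 0 among 680 in WT PBS. The largest B cell of DJ-1 KO OVA held 135781 of their 790446 UMIs, which weighs on the CPM of these B cells throughout. Retnla-high cells held 28.7% of the Retnla UMIs of the DJ-1 KO OVA library and 18.5% of those of WT OVA. Most of the rest, 68.9% and 74.6%, lay in cells with Scgb1a1 at 2% of UMIs or more, the secretoglobin of club cells.

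The label was checked against 14 alveolar type 2 markers. Of these the gate had used Sftpc and Sftpb, so the sum was taken over the other 12. All 12 were detected in the summed Retnla-high cells of both libraries, but in the summed B cells too. Detection thus does not bear on the label, and only the levels are set side by side. Without the gate genes the markers summed to 50574 CPM in the Retnla-high cells and 47377 CPM in the other Sftpc cells of DJ-1 KO OVA, and to 50699 and 43284 CPM in WT OVA. B cells had 834 CPM in DJ-1 KO OVA and 731 CPM in WT OVA. Sftpc, the surfactant protein used in the gate, stood at 86393 CPM in Retnla-high cells, 97603 CPM in other Sftpc cells of DJ-1 KO OVA, 117724 CPM in Retnla-high cells, 119174 CPM in other Sftpc cells of WT OVA and 162254 CPM in those of WT PBS. Sftpa1 and Sftpd, the surfactant proteins of innate defence, were 1.24 (1.21 to 1.27) and 1.33 (1.28 to 1.38) times their level in the other Sftpc cells in DJ-1 KO OVA, and 1.37 (1.34 to 1.39) and 1.33 (1.26 to 1.39) times in WT OVA. Lamp3, a lamellar body protein, was at 0.890 (0.842 to 0.941) in DJ-1 KO OVA and 0.987 (0.919 to 1.06) in WT OVA.

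The summed levels of club, goblet and alveolar type 1 cell markers each differed by less than 1.5-fold between Retnla-high and other Sftpc cells of both libraries, although single markers passed it. Club cell markers summed to 2482 CPM in Retnla-high cells and 3497 CPM in other Sftpc cells of DJ-1 KO OVA, and to 2584 and 3199.8 CPM in WT OVA. Scgb1a1, one of these markers, is limited by the gate itself. Of the club cell markers Bpifa1 was past 1.5-fold higher and Cbr2 lower in DJ-1 KO OVA, and Scgb3a2 and Por were lower in WT OVA. The 10 goblet cell markers, which include the mucins Muc5ac and Muc5b, summed to 50.04 CPM in Retnla-high cells and 41.7 CPM in the others in DJ-1 KO OVA, and to 41.1 and 39.9 CPM in WT OVA. Itln1 was at 0 in all Sftpc cells of the 3 libraries. It was the only goblet marker at 0 in Retnla-high cells of DJ-1 KO OVA, where Foxa3 and Agr2 were also at 0 in the others. In Retnla-high cells of WT OVA, Muc5ac, Foxa3 and Agr2 were at 0 as well. Alveolar type 1 markers summed to 1765 CPM in Retnla-high cells and 2003 CPM in the others in DJ-1 KO OVA, and to 1659.5 and 1920.0 CPM in WT OVA, where Hopx and Aqp5 were past 1.5-fold lower.

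Markers of other lineages were set beside these cells for the same check. Scrublet marked none of the 232 cells as doublets, but it marked only 0.0676% of the DJ-1 KO OVA library, too few for its calls there to be relied on. A UMI of Ptprc, the pan-leukocyte gene, was present in 37 of 190 Retnla-high cells and 14 of 91 other Sftpc cells of DJ-1 KO OVA, and in 3 of 42 and 109 of 789 in WT OVA. T cell markers summed to 82.9 CPM in Retnla-high cells of DJ-1 KO OVA, with 1 cell at 6239 CPM, and to 21.8 CPM in those of WT OVA. Fibroblast markers summed to 72.8 CPM in DJ-1 KO OVA, with 1 cell at 3978 CPM, and to 4.84 CPM in WT OVA. Neutrophil markers summed to 19.2 CPM in Retnla-high cells and 187 CPM in other Sftpc cells of DJ-1 KO OVA, and to 259 and 825 CPM in WT OVA. B cell markers summed to 28.3 and 21.8 CPM, alveolar macrophage markers to 948 and 1449 CPM, endothelial markers to 21.7 and 12.1 CPM, mesothelial markers to 81.9 and 41.1 CPM and ciliated cell markers to 108 and 119 CPM in Retnla-high cells of DJ-1 KO OVA and WT OVA. Of the 12 alveolar macrophage markers 3, Marco, Siglecf and Ear1, were at 0 in Retnla-high cells of DJ-1 KO OVA. In those of WT OVA 6 were, namely these 3 with Mrc1, Fabp4 and Krt79. In the other Sftpc cells 4 were at 0 in DJ-1 KO OVA, Siglecf and Ear1 among them, and 0 in WT OVA.

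Retnla-high cells also held more UMIs than their neighbours. Their median was 10232 UMIs in DJ-1 KO OVA and 9425 UMIs in WT OVA, against 7481 and 6874 in the other Sftpc cells. Mitochondrial UMIs had a median share of 3.58% in Retnla-high cells and 4.001% in the others in DJ-1 KO OVA, and 4.18% and 4.59% in WT OVA. The part of depth in the contrasts that follow was examined only by thinning.

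Slc26a4, which encodes the anion exchanger pendrin, was higher in Retnla-high cells of both libraries. It stood at 1193 CPM in Retnla-high cells and 241 CPM in other Sftpc cells of DJ-1 KO OVA, and at 397 and 46.9 CPM in WT OVA. Sftpc cells of WT PBS had 18.5 CPM, and B cells 2.53 CPM in DJ-1 KO OVA and 1.01 CPM in WT OVA. The ratio of Retnla-high to other Sftpc cells was 4.95-fold (4.21 to 5.86) in DJ-1 KO OVA and 8.46-fold (6.92 to 10.3) in WT OVA. A UMI was found in 91.1% of Retnla-high cells and 46.2% of the others in DJ-1 KO OVA, and in 76.2% and 14.4% in WT OVA. At 1000 UMIs a cell these shares were 56.5% and 18.4%, and 28.6% and 2.79%. Per cell, the quartiles of the Retnla-high cells were 460.2 and 1662 CPM in DJ-1 KO OVA, and 86.6 and 539 CPM in WT OVA, so the cells of both libraries spread widely and overlapped. Its ratio in WT OVA was 22.4 when cells were thinned.

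Chia1, the acidic chitinase, was at 3841 CPM in Retnla-high cells and 651 CPM in other Sftpc cells of DJ-1 KO OVA, and at 2218 and 232 CPM in WT OVA. The Sftpc cells of WT PBS had 195 CPM, close to the other Sftpc cells of WT OVA. The ratios were 5.90-fold (5.35 to 6.52) in DJ-1 KO OVA and 9.57-fold (8.78 to 10.4) in WT OVA. Its cells ranged up to 18359 CPM, around a median of 2729.6 CPM, among Retnla-high cells of DJ-1 KO OVA, and up to 11519.7 CPM, around 1493 CPM, among those of WT OVA. Il33, the nuclear alarmin that alerts group 2 lymphoid cells when released, was at 1713 CPM in Retnla-high cells and 1022 CPM in the others in DJ-1 KO OVA, and at 803 and 329 CPM in WT OVA, against 343 CPM in WT PBS. The ratios were 1.68-fold (1.54 to 1.83) and 2.44-fold (2.16 to 2.74), smaller than those of Slc26a4 and Chia1.

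A UMI of each of Slc26a4, Chia1 and Il33 together was found in 158 of 190 Retnla-high cells of DJ-1 KO OVA, or 83.2% (77.1 to 88.2), and in 28 of its 91 other Sftpc cells, or 30.8% (21.5 to 41.3). In WT OVA it was found in 28 of 42 Retnla-high cells, or 66.7% (50.5 to 80.4), and in 57 of 789 others, or 7.22% (5.52 to 9.26). In WT PBS 33 of 313 Sftpc cells, or 10.5%, held all 3.

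**Figure D2:**
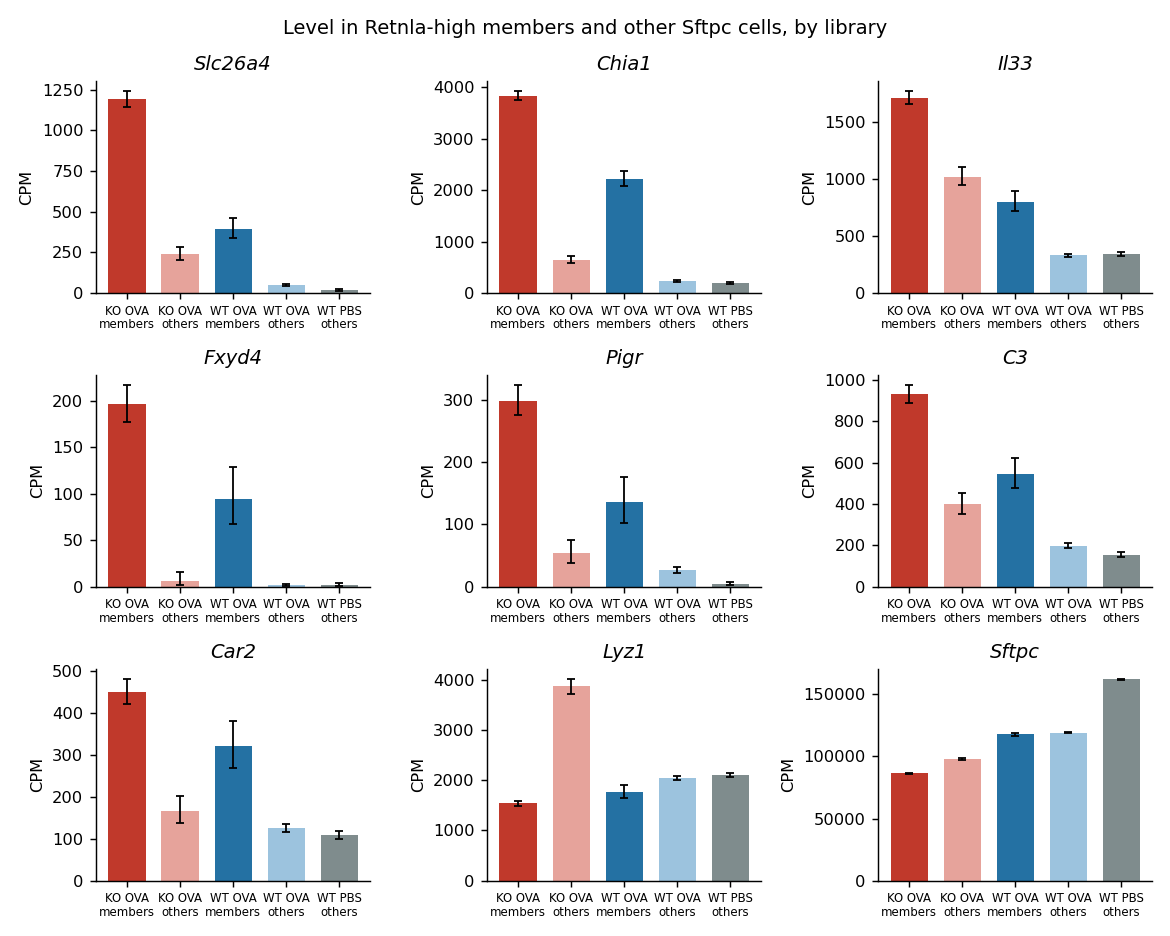
Summed level (CPM, bars, with 95% Poisson intervals) of 9 genes in Retnla-high cells (members) and other Sftpc cells (others) of each library, each panel with its own axis from 0. Slc26a4, Chia1, Il33, Fxyd4, Pigr, C3 and Car2 are higher in members than in others of the same library, Lyz1 is lower in members of DJ-1 KO OVA (1539.6 against 3867 CPM), and Sftpc runs from 86393 to 162254 CPM.

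Levels along the Retnla share were read by splitting the Sftpc cells of each library into ranges of that share, as CPM of the UMIs other than Retnla. In DJ-1 KO OVA, Slc26a4 stood at 58.5 in the 23 cells with no Retnla UMI, 226 in 32 cells up to 0.1%, 355 in 36 cells from 0.1% to 1%, 676 in 40 cells from 1% to 2%, 1284 in 69 cells from 2% to 5%, 1423 in 70 cells from 5% to 10% and 1752 in 11 cells above that. In WT OVA the same ranges gave 15.7 in 552 cells, 46.3 in 158, 219 in 79, 242 in 20, 465 in 15 and 769.5 in 7. Slc26a4 was thus higher in each higher range of both libraries. Ranges of under 20 cells, namely the highest in DJ-1 KO OVA and the top pair in WT OVA, are thinly filled, and the order held without them. Median depth also differed along the ranges, from 6398 UMIs in cells with no Retnla to 11156 at 5% to 10% in DJ-1 KO OVA, and from 6642 to 10912 in WT OVA.

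Fxyd4 appeared in the upper ranges. It stood at 0, 7.80 and 7.88 CPM below the limit in DJ-1 KO OVA, and at 45.1, 93.9, 307 and 666 above it. In WT OVA it stood at 1.35, 1.65 and 2.97 below the limit and at 10.7, 124 and 289 above it. Chia1 went from 497 in cells with no Retnla UMI to 4893 in cells at 5% to 10% in DJ-1 KO OVA, and from 128 to 4168 in WT OVA, although in DJ-1 KO OVA it was 670.1 at 0.1% to 1% and 718 below that range, and in WT OVA it was 1881 at 2% to 5% and 1988 below that range. Il33 was uneven in DJ-1 KO OVA, at 709, 687, 1533, 1355, 1711, 1925 and 2829.8 CPM from the lowest range to the highest, and higher in each higher range of WT OVA, from 290.2 to 1186 CPM. Sftpc showed no such order, at 104031 and 93336 CPM in those ranges of DJ-1 KO OVA and 120060 and 130034 in WT OVA. Lyz1, a lysozyme, ran the other way in DJ-1 KO OVA, from 6104 with no Retnla UMI to 1609.9 at 5% to 10%, and was uneven in WT OVA, at 2160.4 with none, 3703 at 1% to 2% and 229 at 2% to 5%.

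**Figure D3:**
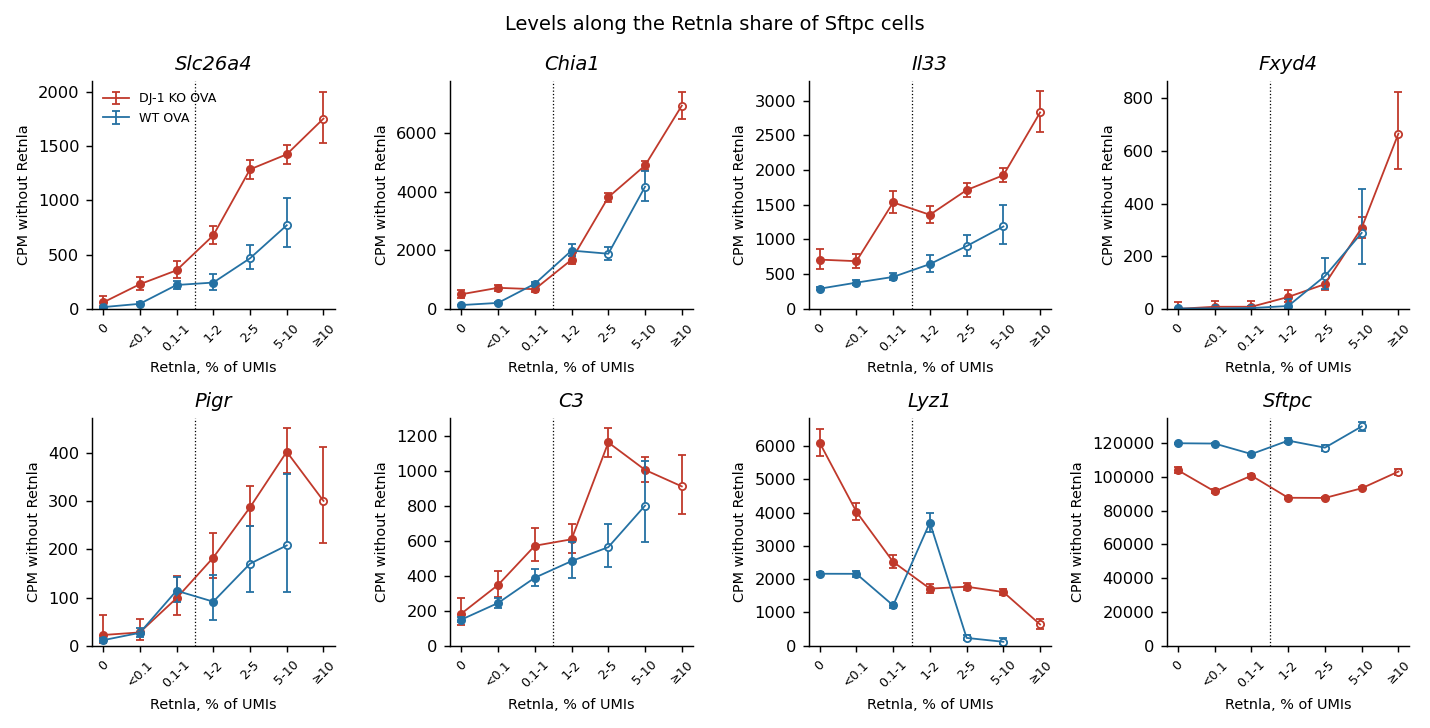
Level as CPM of the UMIs other than Retnla (vertical axes from 0, 95% Poisson intervals) of 8 genes in Sftpc cells of DJ-1 KO OVA (red) and WT OVA (blue), split by their Retnla share in 7 ranges, with the 1% limit as a dotted line and open points for ranges of under 20 cells. Slc26a4 goes up along the ranges in both libraries, to 1752 CPM in DJ-1 KO OVA and 769.5 CPM in WT OVA, while Sftpc lies between 87590.3 and 130034.

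Over all genes with at least 50 UMIs in the cells compared, 510 of 6018, or 8.47%, were at least 1.5-fold higher in Retnla-high cells of DJ-1 KO OVA than in its other Sftpc cells, and 577, or 9.59%, were as much lower. In WT OVA 654 of 8239, or 7.94%, were higher and 1436, or 17.4%, were lower. These are counts past a fold, with no test, and the median log2 ratio over all genes was -0.06 for DJ-1 KO OVA and -0.08 for WT OVA. Centred on that median, the counts were 622 higher and 442 lower in DJ-1 KO OVA, and 862 and 1216 in WT OVA. Scaled to UMIs other than Retnla, they were 644 higher and 413 lower in DJ-1 KO OVA, and 752 and 1312 in WT OVA. Without both cells of shared barcodes 294 of 4166 genes were higher and 348 lower in DJ-1 KO OVA.

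The contrasts of both libraries had genes in common. Of 1871 genes with at least 200 UMIs in each contrast, 105 genes of DJ-1 KO OVA and 80 of WT OVA were past 1.5-fold higher, and 35 in both. The shared genes were 33.3% of the DJ-1 KO OVA genes and 43.8% of the WT OVA genes, where 4.28% of all 1871 were called in WT OVA. They include Retnla, Slc26a4, Chia1, Pigr, C3, Car2, Il33, Chil1, Ptgs1, Cd14 and Bst2. In the lower direction 96 genes were called in DJ-1 KO OVA, 81 in WT OVA and 17 in both, or 17.7% and 21.0% of each, against 4.33% of all genes in WT OVA. Lpcat1, Elovl1 and Nupr1 are among these 17. In opposite directions lay 6 of the 105 genes higher in DJ-1 KO OVA, which were lower in WT OVA, where 4.33% of all 1871 were lower. With at least 50 UMIs in each contrast, 121 of 5978 genes were higher in both. They were 25% of the DJ-1 KO OVA genes and 32.7% of the WT OVA genes, against 6.19% of all genes in WT OVA. At that minimum 154 were lower in both, or 26.8% of the DJ-1 KO OVA genes and 19.8% of the WT OVA genes, against 13.0% of all genes in WT OVA. Of 484 genes higher in DJ-1 KO OVA 53 were lower in WT OVA, and of 575 lower there 11 were higher in WT OVA. The contrasts share no cells, but the same gate on Retnla chose the cells of both.

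**Figure D4:**
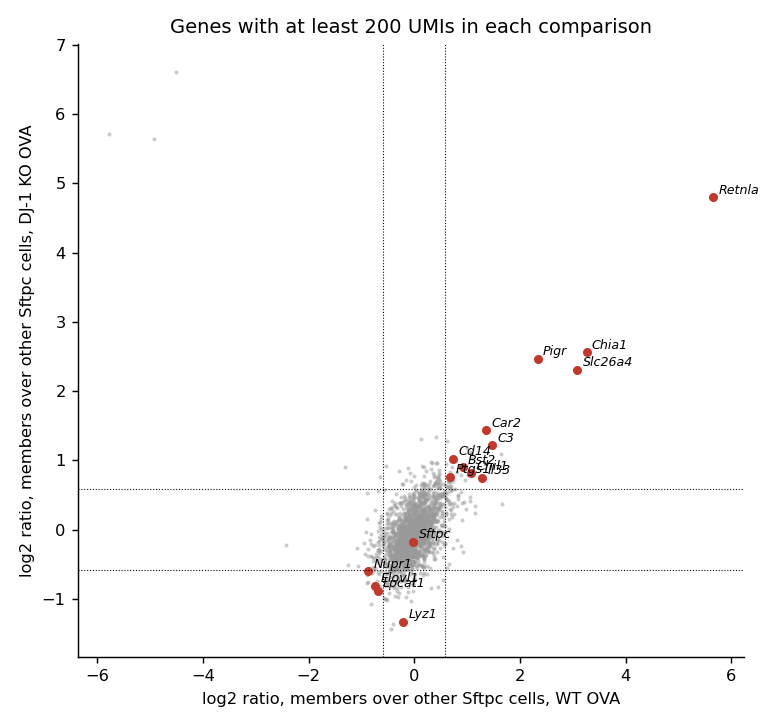
Log2 ratio of Retnla-high cells over other Sftpc cells in WT OVA (horizontal) and DJ-1 KO OVA (vertical) for 1871 genes with at least 200 UMIs in each, with named genes in red and 1.5-fold limits dotted. Retnla, Chia1, Slc26a4 and Pigr lie furthest to the upper right, Lyz1 is low in DJ-1 KO OVA alone, and the 3 grey points at the upper left are haemoglobin genes.

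Of the 22 genes on a list of interleukin 13 and STAT6 response genes, 7 could be measured in each contrast. In DJ-1 KO OVA 4 were past 1.5-fold higher and 0 lower, and in WT OVA 4 were higher and 1 lower. The 4 were Retnla, Slc26a4, Chia1 and Ptgs1 in both libraries. The gate fixed Retnla, and Slc26a4 and Chia1 had been named as markers from these data, which leaves Ptgs1, so the count is a description only. Beside it, 8.47% of all genes were higher in DJ-1 KO OVA and 7.94% of those in WT OVA were, and the same 4 were higher without shared barcodes. Ptgs1, the constitutive cyclooxygenase, stood at 445 CPM in Retnla-high cells and 262 CPM in the others in DJ-1 KO OVA, and at 290.3 and 181 CPM in WT OVA. The gene that was lower in WT OVA was Chil3, at 21.8 and 116 CPM, which encodes a chitinase-like protein of macrophages and shares sequence with Chil4. Its ratio, 0.187 (0.0852 to 0.357), was 0.499 without cells holding a Ptprc UMI. Chil1, another chitinase-like protein, was 1.76-fold (1.69 to 1.84) higher in DJ-1 KO OVA, at 7141 and 4054 CPM, and 2.10-fold (2.01 to 2.19) in WT OVA, at 5750.4 and 2738 CPM.

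Of genes for interleukin 4 and interleukin 13 receptors and JAK-STAT signalling, 0 of 11 measured in DJ-1 KO OVA were past 1.5-fold higher and 1, Stat6, was lower. Of 14 measured in WT OVA 1, Il4ra, was higher and 0 were lower. With 8.47% of all genes higher and 9.59% lower in DJ-1 KO OVA, and 7.94% and 17.4% in WT OVA, lists of this size are too short for these counts to set them apart. Il4ra, the receptor chain that both cytokines use, had 85.4 CPM in Retnla-high cells and 61.7 CPM in the others in DJ-1 KO OVA, or 1.38 (0.975 to 2.01) times, and 82.3 and 39.4 CPM in WT OVA, or 2.09 (1.41 to 3.01) times. Il13ra1 had 28.3 and 23.1 CPM in DJ-1 KO OVA, and 21.8 and 19.3 CPM in WT OVA. Stat6 had 34.4 and 52.5 CPM in DJ-1 KO OVA, with an interval of the ratio from 0.428 to 1.02, and 33.9 and 43.9 CPM in WT OVA.

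Pigr, C3 and Cd14 were higher in Retnla-high cells of both libraries. Pigr, the receptor that carries polymeric immunoglobulin A across epithelium, had 299 CPM in Retnla-high cells and 54.0 CPM in the others in DJ-1 KO OVA, and 135 and 26.9 CPM in WT OVA, against 5.02 CPM in WT PBS. The ratios were 5.53-fold (3.93 to 8.02) and 5.04-fold (3.64 to 6.90), and a UMI was found in 54.2% and 16.5% of the cells in DJ-1 KO OVA and 47.6% and 8.24% in WT OVA. Of B cells, 1.86% and 0.619% held one. The Pigr ratio in DJ-1 KO OVA was 3.28 with a Retnla limit of 2% and 10.99 with a Sftpc limit of 5%. C3, the central complement component, had 931 and 399.7 CPM in DJ-1 KO OVA, or 2.33-fold (2.04 to 2.66), and 547 and 198 CPM in WT OVA, or 2.76-fold (2.38 to 3.19). Cd14, the endotoxin co-receptor, was 2.03-fold (1.62 to 2.59) higher in DJ-1 KO OVA and 1.67-fold (1.20 to 2.27) in WT OVA. Lcn2, a siderophore-binding protein, was past 1.5-fold in WT OVA, at 2499 and 1127 CPM, and stood at 4480.2 and 3540.2 CPM in DJ-1 KO OVA, or 1.27 (1.21 to 1.33) times. Of 11 acute phase and antimicrobial genes measured 2 were higher and 3 lower in each library, and of 3 complement genes 2 were higher and 0 lower in DJ-1 KO OVA, and 1 higher and 1 lower in WT OVA. Over all genes 8.47% were higher and 9.59% lower in DJ-1 KO OVA, and 7.94% and 17.4% in WT OVA.

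Among cytokines and chemokines Ccl20 lay in few cells. Ccl20, which attracts CCR6-bearing lymphocytes, had 99.6 CPM in Retnla-high cells and 9.26 CPM in the others in DJ-1 KO OVA, and 4.84 and 5.91 CPM in WT OVA. In DJ-1 KO OVA 10.5% of the Retnla-high cells and 3.30% of the others held a UMI, and 1 cell held 17.8% of its UMIs. The ratio there, 10.8-fold (4.85 to 29.7), was 3.33 with a Retnla limit of 2%, 5.58 without shared barcodes and 26.5 without the highest cell of each group. Il6 had 179.9 and 72.5 CPM in DJ-1 KO OVA, or 2.48-fold (1.83 to 3.44), but stood at 0.871 times when the Retnla limit was 2%, and it had 67.7 and 62.1 CPM in WT OVA. Cxcl5, a neutrophil attractant, had 221 and 105 CPM in DJ-1 KO OVA and 77.4 and 3.40 CPM in WT OVA, where 1 cell held 56.2% of the UMIs in Retnla-high cells. Without shared barcodes its ratio in DJ-1 KO OVA was 1.36. Of 8 alarmins, cytokines and growth factors measured in DJ-1 KO OVA 3 were higher and 1 lower, and of 10 in WT OVA 1 was higher and 3 lower. Of 9 chemokines measured in each library 3 were higher and 0 lower in DJ-1 KO OVA, and 2 higher and 1 lower in WT OVA. The shares over all genes were 8.47% higher and 9.59% lower in DJ-1 KO OVA, and 7.94% and 17.4% in WT OVA. The alarmin genes Tslp and Il25 were at 0 in Retnla-high cells of both. Il25 was at 0 in all kept cells of the 3 libraries, and Tslp also in the other Sftpc cells of DJ-1 KO OVA.

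Fxyd4, which encodes a small regulator of the sodium-potassium ATPase, was found mainly in the Retnla-high cells among the Sftpc cells. It had 389 UMIs in Retnla-high cells and 4 in the others in DJ-1 KO OVA, or 31.9-fold (12.3 to 117), and 39 and 9 in WT OVA, or 58.5-fold (27.9 to 137), which falls short of the 50 UMIs that the counts of genes ask for. With a Retnla limit of 2% the ratio in DJ-1 KO OVA was 11.6. It was detected in 48.9% and 4.40% of the cells in DJ-1 KO OVA, in 23.8% and 1.01% in WT OVA, in 2.56% of Sftpc cells of WT PBS and in 0.311% of B cells of DJ-1 KO OVA. At 1000 UMIs a cell the shares were 15.6% and 1.15% in DJ-1 KO OVA, and 11.9% and 0% in WT OVA. Slc5a1, the sodium-glucose cotransporter, had 223 and 71.0 CPM in DJ-1 KO OVA, or 3.15-fold (2.32 to 4.36), and 123 and 21.8 CPM in WT OVA, or 5.65-fold (3.99 to 7.89). Car2, a carbonic anhydrase, was 2.71-fold (2.21 to 3.33) and 2.56-fold (2.11 to 3.08) higher, and Slc6a20a, an imino acid transporter, 3.18-fold (1.96 to 5.50) and 2.80-fold (1.69 to 4.47).

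Of 17 ion and fluid transport genes measured in DJ-1 KO OVA 3 were higher and 1 lower, and of 18 in WT OVA 4 were higher and 5 lower. Beside these counts 8.47% of all genes were higher and 9.59% lower in DJ-1 KO OVA, and 7.94% and 17.4% in WT OVA. Slc26a4, Car2 and Ano1, a calcium-activated chloride channel, were higher in both. Ano1 had 35.9 and 17.0 CPM in DJ-1 KO OVA and 24.2 and 13.1 CPM in WT OVA, with intervals of the ratio from 1.11 to 4.43 and from 0.852 to 3.60. Cftr, the chloride channel of cystic fibrosis, had 71.3 and 95.7 CPM in DJ-1 KO OVA and 46.0 and 34.9 CPM in WT OVA.

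Of 18 surfactant and lamellar body genes measured 0 were past 1.5-fold higher and 1 was lower in each library, where 9.59% of all genes were lower for DJ-1 KO OVA and 17.4% for WT OVA. Their median log2 ratio was -0.29 for DJ-1 KO OVA, between -0.31 and -0.20 under the alternatives, and -0.04 for WT OVA, against -0.06 and -0.08 over all genes. Without shared barcodes 3 of 18 were lower in DJ-1 KO OVA, namely Lpcat1, Prdx6 and Pcyt1a. The gene lower in both libraries was Lpcat1, an enzyme of surfactant phospholipid synthesis. Lpcat1 had 730.4 CPM in Retnla-high cells and 1346 CPM in the others in DJ-1 KO OVA, or 0.543 (0.499 to 0.591) times, and 902 and 1457 CPM in WT OVA, or 0.619 (0.557 to 0.687) times. The lamellar body lipid transporter Abca3 was at 0.689 (0.624 to 0.761) and 0.799 (0.713 to 0.892) times. Of 20 lipid synthesis genes 0 were higher and 3 lower in each library, with median log2 ratios of -0.36 for DJ-1 KO OVA and -0.37 for WT OVA, against -0.06 and -0.08 over all genes. Elovl1, a fatty acid elongase, was lower in both, at 0.571 (0.519 to 0.630) and 0.600 (0.524 to 0.684) times. Scd1, the stearoyl-CoA desaturase, had 12965 and 20000.3 CPM in DJ-1 KO OVA, or 0.648 (0.635 to 0.662) times, and 9036 and 12702 CPM in WT OVA, or 0.711 (0.688 to 0.735) times, and it stood at 0.694 times in DJ-1 KO OVA without shared barcodes.

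Endoplasmic reticulum chaperone genes in Retnla-high cells of DJ-1 KO OVA, set against its other Sftpc cells, were past 1.5-fold higher for 6 of 21 and lower for 0, with a median log2 ratio of 0.41. In WT OVA 2 of 20 were higher and 2 lower, with a median of 0.17. The 6 were the lectin chaperone Calr at 1.58 (1.34 to 1.88) times, the disulfide isomerases Pdia3 at 1.58 (1.28 to 1.98) and P4hb at 1.63 (1.38 to 1.94), Sdf2l1, a chaperone cofactor, at 4.38 (2.38 to 8.96), Creld2 at 1.91 (1.21 to 3.15) and Manf at 1.76 (1.36 to 2.33). Without shared barcodes 8 of 21 were higher and 0 lower. In the main contrasts 8.47% of all genes were higher and 9.59% lower in DJ-1 KO OVA, and 7.94% and 17.4% in WT OVA. Prdx4, the peroxiredoxin of the endoplasmic reticulum, was 3.26-fold (2.003 to 5.62) higher in DJ-1 KO OVA and 2.45-fold (1.64 to 3.56) in WT OVA, and 1.97-fold in DJ-1 KO OVA without shared barcodes.

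Respiratory chain genes had median log2 ratios of 0.45 for DJ-1 KO OVA and 0.34 for WT OVA, with 3 of 19 past 1.5-fold higher in each, while 0 were lower in DJ-1 KO OVA and 1 was lower in WT OVA. Without shared barcodes 0 were higher and 1 lower in DJ-1 KO OVA. Cycs, cytochrome c, was at 1.65 (1.27 to 2.16) and 1.96 (1.49 to 2.54) times, and Ckmt1, the mitochondrial creatine kinase, at 3.44 (1.99 to 6.45) and 2.67 (1.52 to 4.46) times. Of the immediate early genes 4 of 17 were lower and 0 higher in DJ-1 KO OVA, and 1 of 18 was lower and 0 higher in WT OVA. Egr1 had 1111 CPM in Retnla-high cells and 1904 CPM in the others in DJ-1 KO OVA, and 1667 and 1686 CPM in WT OVA. Heat shock genes were higher for 3 of 11 in each library, among them the near-identical pair Hspa1a and Hspa1b, which could split reads. The counts of these lists stand beside 8.47% of all genes higher and 9.59% lower in DJ-1 KO OVA, and 7.94% and 17.4% in WT OVA. Hspa1a was at 1.61 (1.37 to 1.90) times in DJ-1 KO OVA, but at 1.27 with a Retnla limit of 2%, and Hspa1b at 2.42 (2.04 to 2.89) times. In WT OVA 1 cell held 43.6% of the Hspa1b UMIs of Retnla-high cells, and the ratio without the highest cells was 0.904.

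Among glutathione, thioredoxin and NRF2 target genes, of interest because DJ-1 is known to act on NRF2, 4 of 21 were lower and 0 higher in DJ-1 KO OVA, and 1 of 22 lower and 2 higher in WT OVA. Both sides of each of these contrasts have the same genotype. Cat, catalase, was at 0.514 (0.444 to 0.594) times and Hmox1, haem oxygenase 1, at 0.540 (0.442 to 0.660) times in DJ-1 KO OVA, and at 0.781 (0.673 to 0.902) and 0.979 (0.729 to 1.29) times in WT OVA. Cat was at 0.683 when cells were thinned. Gclc, the first enzyme of glutathione synthesis, was at 1.47 (1.39 to 1.55) times in DJ-1 KO OVA and 1.60 (1.48 to 1.72) times in WT OVA, where a Retnla limit of 0.5% gave 1.41. For Retnla-high cells of DJ-1 KO OVA over those of WT OVA, 4 of 21 genes of this list were higher and 4 lower, with Park7 itself among the lower. In the other Sftpc cells 5 of 22 were higher and 1, Park7, lower. Over all genes 18.1% were higher and 6.52% lower in Retnla-high cells, and 13.0% and 10.2% in the others. None of the MHC class II genes passed 1.5-fold between Retnla-high and other Sftpc cells, of 7 measured in DJ-1 KO OVA and 8 measured in WT OVA. Interferon-stimulated genes were higher for 4 of 9 with 0 lower in DJ-1 KO OVA, and for 5 of 12 with 1 lower in WT OVA. Without shared barcodes 2 of 7 were higher in DJ-1 KO OVA, Ifi27l2a and Bst2, and 0 lower. For these contrasts within a library 8.47% of all genes were higher and 9.59% lower in DJ-1 KO OVA, and 7.94% and 17.4% in WT OVA. Bst2, tetherin, was at 1.87 (1.33 to 2.68) and 1.88 (1.32 to 2.63) times.

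Over all genes 8.47% were higher and 9.59% lower in DJ-1 KO OVA, and 7.94% and 17.4% in WT OVA. Cell cycle genes were higher for 7 of 8 measured in DJ-1 KO OVA with 0 lower, and for 2 of 5 in WT OVA with 0 lower. Of these Mcm5, a subunit of the replicative helicase, had 47.0 and 13.9 CPM in DJ-1 KO OVA, and Top2a, the topoisomerase of mitosis, 32.9 and 1.54 CPM. At least 5 UMIs over 10 proliferation genes were held by 8 of 190 Retnla-high cells and 0 of 91 others in DJ-1 KO OVA, and by 1 of 42 and 5 of 789 in WT OVA. Without shared barcodes only 2 cell cycle genes could be measured in DJ-1 KO OVA, 0 of them past 1.5-fold, and Top2a stood at 0.598 times. Hist1h2ap, a replication histone of a multigene family, had the highest ratio of all ranked genes in DJ-1 KO OVA, 32.3-fold (8.81 to 268), with 43.1% of its UMIs in 1 cell, and it stood at 1.49 without shared barcodes.

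Other genes ranked highest in DJ-1 KO OVA were the long noncoding RNAs Panct2 at 7.26 (3.25 to 20.1) times and Meg3 at 4.59 (2.62 to 8.78) times, the paracaspase Malt1 at 3.61 (2.48 to 5.44) times, Dmkn at 3.45 (2.24 to 5.54) times and Pbld2 at 3.60 (1.94 to 7.41) times. Meg3 was at 15.4 without shared barcodes and 12.9 without its highest cells, and Malt1 at 1.90 with a Retnla limit of 2%. In WT OVA Panct2 was at 3.86 (2.07 to 6.83) times, Meg3 at 2.72 (1.75 to 4.11), Malt1 at 1.43 (0.778 to 2.43), Dmkn at 1.34 (0.592 to 2.65) and Pbld2 at 1.27 (0.617 to 2.36). Fcer2a, the low-affinity receptor for immunoglobulin E, had 101 and 18.5 CPM in DJ-1 KO OVA and 24.2 and 4.66 CPM in WT OVA. B cells of the same libraries, which are known to express it, had 230.2 and 319 CPM, and the part of free RNA was not tested. The ratio of Fcer2a in DJ-1 KO OVA was 5.46-fold (3.06 to 10.7), and 1.74 with a Retnla limit of 2%. Sox9, a transcription factor of distal lung progenitors, had 57 UMIs in Retnla-high cells and 0 in the others in DJ-1 KO OVA, which is at least 6.22-fold higher when 0 is set to a group floor of 3 UMIs, and 1 UMI in each group of WT OVA. Cldn4, a tight junction gene of the transitional alveolar state, had 61 and 0 UMIs in DJ-1 KO OVA, at least 6.66-fold higher, and 5 and 20 UMIs in WT OVA. Of 19 transitional genes measured 5 were higher and 3 lower in DJ-1 KO OVA, while of 18 in WT OVA 2 were higher and 5 lower. Without shared barcodes 0 of 14 were higher and 2 lower in DJ-1 KO OVA. Of 15 alveolar and airway transcription factors measured in each library 1 was higher and 2 were lower. Without shared barcodes 0 of 12 were higher and 1, Gata6, was lower in DJ-1 KO OVA. Neither Sox9 nor Cldn4 was thus among the measured genes past 1.5-fold higher there. Among all genes 8.47% were higher and 9.59% lower in DJ-1 KO OVA, and 7.94% and 17.4% in WT OVA.

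In WT OVA the genes ranked highest also held Tmem213 at 3.76 (2.54 to 5.45) times, Aass, an enzyme of lysine breakdown, at 3.11 (1.95 to 4.80), Klhl13 at 3.19 (1.88 to 5.17) and Ly6i at 3.16 (2.33 to 4.22), against 2.21 (1.49 to 3.39), 2.72 (1.62 to 4.90), 1.21 (0.686 to 2.25) and 1.29 (1.00 to 1.67) in DJ-1 KO OVA. Plac8 was ranked too, but 1 cell held all of its 93 UMIs in the Retnla-high cells.

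Among genes lower in Retnla-high cells of DJ-1 KO OVA, Lyz1 had 1539.6 CPM and the others 3867 CPM, or 0.398 (0.377 to 0.420) times, while WT OVA had 1768 and 2043 CPM, or 0.865 (0.802 to 0.933) times. Lyz1 has a close paralogue in Lyz2. It was patchy in every group: 35.3% of Retnla-high cells and 36.3% of the others held a UMI in DJ-1 KO OVA, and the highest cells stood at 17845 and 45321 CPM. Without shared barcodes the ratio in DJ-1 KO OVA was 0.249. Mrpl9, a mitochondrial ribosome protein, was at 0.232 (0.154 to 0.348) times, but at 0.860 without its highest cells. Also lower were Rabgef1, a Rab5 exchange factor, at 0.334 (0.223 to 0.499), Bex2 at 0.371 (0.293 to 0.471), Sec14l3 at 0.388 (0.271 to 0.556), Spink5, a protease inhibitor, at 0.389 (0.300 to 0.505) and Gata6, a lung transcription factor, at 0.441 (0.324 to 0.603). Arhgef38, Ppp1r10 and Ptk7 were at 0.396, 0.427 and 0.441 times, and Arhgef38 was at 5.52 when cells were thinned. In WT OVA these 9 genes lay between 0.641 and 0.973 times, with 1 of them, Sec14l3, past 1.5-fold. Among the lowest of WT OVA, Acsl3, Sp2, Lcorl and Atf5 had 1 or 2 UMIs each in the Retnla-high cells and lay between 0.534 and 1.43 times in DJ-1 KO OVA.

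**Figure D5:**
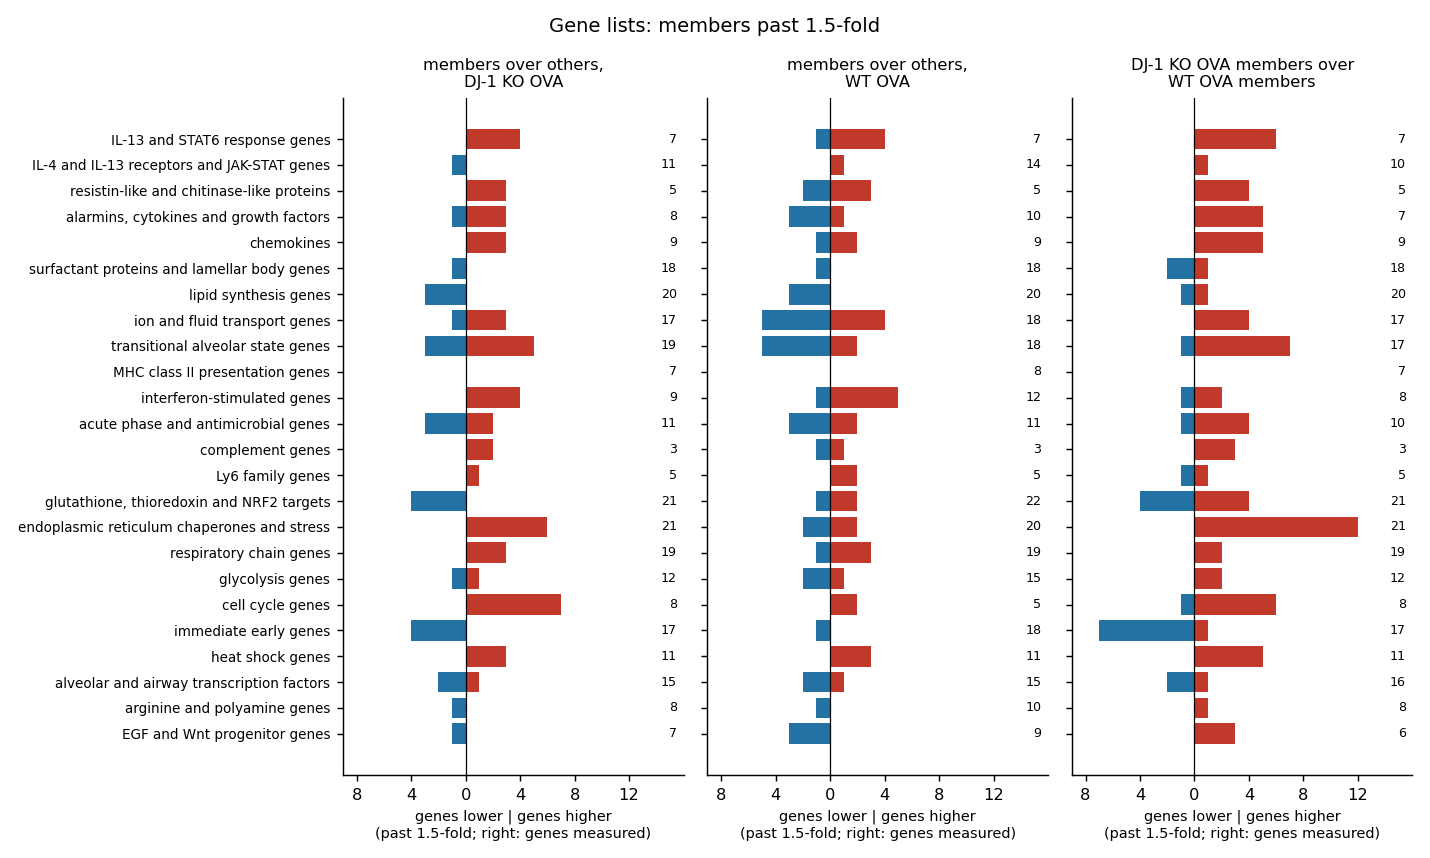
Number of genes of each of 24 lists past 1.5-fold higher (red, to the right) and lower (blue, to the left) in Retnla-high cells (members) over other Sftpc cells of DJ-1 KO OVA, the same in WT OVA, and Retnla-high cells of DJ-1 KO OVA over those of WT OVA, with the number of genes measured at the right edge. Endoplasmic reticulum chaperones have 12 of 21 higher in the last panel, and immediate early genes 7 of 17 lower, where 18.1% of all genes were higher and 6.52% lower.

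Retnla-high cells of DJ-1 KO OVA were then set against those of WT OVA, with the same ratio in the other Sftpc cells beside it. Of 5627 genes measured 1018, or 18.1%, were past 1.5-fold higher in DJ-1 KO OVA and 367, or 6.52%, lower, with a median log2 ratio of 0.12 over all genes. Centred on that median the counts were 749 higher and 576 lower. In the other Sftpc cells 1085 of 8360, or 13.0%, were higher and 856, or 10.2%, lower. Retnla was 1.67-fold (1.64 to 1.70) higher in Retnla-high cells and 3.04-fold (2.84 to 3.25) in the other Sftpc cells, Slc26a4 3.01-fold (2.57 to 3.54) and 5.13-fold (4.18 to 6.28), Chia1 1.73-fold (1.62 to 1.86) and 2.81-fold (2.51 to 3.14), and Il33 2.13-fold (1.91 to 2.40) and 3.101-fold (2.83 to 3.39). All 4 were thus higher in DJ-1 KO OVA on both sides of the gate. Of the 7 interleukin 13 and STAT6 response genes measured in Retnla-high cells 6 were higher in DJ-1 KO OVA and 0 lower. Of 7 in the other Sftpc cells 4 were higher and 1 lower. The 6 were Retnla, Slc26a4, Chia1, Chil4, Chil3 and Ptgs1. Retnla set the gate, and Slc26a4 and Chia1 had been named as markers from these data. Chil4 had 0 UMIs in Retnla-high cells of WT OVA. These counts are thus a description only, beside 18.1% of all genes higher in Retnla-high cells and 13.0% in the others. Without shared barcodes 4 of 6 were higher in Retnla-high cells and 0 lower, and Retnla and Ptgs1 were no longer past 1.5-fold, at 1.496 and 1.49 times.

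The Retnla-high cells of DJ-1 KO OVA reached higher Retnla shares, so levels were also compared within ranges of the Retnla share. For Slc26a4 the ratio of DJ-1 KO OVA to WT OVA was 2.80 (2.03 to 3.94) at 1% to 2%, 2.76 (2.16 to 3.57) at 2% to 5% and 1.85 (1.38 to 2.52) at 5% to 10%. For Il33 it was 2.10 (1.72 to 2.59), 1.89 (1.58 to 2.28) and 1.62 (1.28 to 2.08). For Chia1 it was 0.843 (0.739 to 0.962), 2.03 (1.79 to 2.30) and 1.17 (1.03 to 1.34), which is not on one side of 1. For Fxyd4 it was 4.19 (0.986 to 37.6), 0.754 (0.445 to 1.34) and 1.07 (0.659 to 1.83), with the widest interval in the first. The upper ranges hold 15 and 7 cells of WT OVA.

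Endoplasmic reticulum chaperone genes were higher in DJ-1 KO OVA for 12 of 21 in Retnla-high cells with 0 lower, at a median log2 ratio of 0.80, and for 10 of 20 in the other Sftpc cells with 0 lower, at 0.58. Hspa5, the main chaperone of that compartment, had 1384 CPM in Retnla-high cells of DJ-1 KO OVA and 501 CPM in those of WT OVA, or 2.76-fold (2.40 to 3.20), and 977 and 468 CPM in the others. B cells had 1029.8 CPM in DJ-1 KO OVA and 551 CPM in WT OVA. The first level leans on the largest B cell, with 135781 of the 790446 UMIs summed, and was not computed without it. Without shared barcodes 14 of 21 were higher and 0 lower. Immediate early genes were lower for 7 of 17 in Retnla-high cells and higher for 1, at a median of -0.58, and lower for 2 of 18 and higher for 4 in the others, at -0.12. Fos had 1238 CPM in Retnla-high cells of DJ-1 KO OVA and 2310.3 CPM in those of WT OVA, and Fosb 522 and 1202 CPM. Heat shock genes were higher for 5 of 11 in Retnla-high cells and 0 in the others, at medians of 0.57 and 0.27. They summed to 4947 CPM in Retnla-high cells of DJ-1 KO OVA and 3380 CPM in those of WT OVA. In the other Sftpc cells the sums were 4076 and 3464 CPM, and in all remaining kept cells 4926 and 3139 CPM. Over all genes 18.1% were higher and 6.52% lower in Retnla-high cells, and 13.0% and 10.2% in the other Sftpc cells.

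Among the genes ranked highest, Steap4, a metalloreductase, was 7.26-fold (2.77 to 27.0) higher in Retnla-high cells and 7.45-fold (4.50 to 12.3) in the others, and Pf4, a platelet chemokine, 4.14-fold (1.71 to 13.0) and 5.17-fold (3.17 to 8.29). Dmkn was 5.62-fold (2.91 to 12.4) higher and 2.18-fold (1.32 to 3.47) in the others, and Malt1 4.61-fold (2.75 to 8.33) and 1.82-fold (1.19 to 2.71). Ccl20 rested on 2 UMIs in WT OVA, at 20.6-fold (5.62 to 171). Fryl, Itm2a and Psmc1 rested on 6 UMIs each, at 4.07 (1.82 to 11.3), 4.04 (1.80 to 11.2) and 3.90 (1.74 to 10.9) times, and Hist1h2ap on 0, at least 13.7-fold higher by the same floor of 3 UMIs. Among the lowest, Bex2 was at 0.332 (0.256 to 0.432) times in Retnla-high cells and 0.661 (0.551 to 0.787) in the others, Rhob, a small GTPase, at 0.373 (0.305 to 0.459) and 0.659 (0.550 to 0.784), Trib1, a pseudokinase, at 0.376 (0.289 to 0.492) and 0.905 (0.718 to 1.13), Cyr61, a matricellular protein, at 0.441 (0.380 to 0.514) and 0.957 (0.826 to 1.104), and Ang, a ribonuclease, at 0.429 (0.308 to 0.606) and 0.564 (0.433 to 0.724).

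Stmn1 and Clstn1, which lie on chromosome 4 with Park7 in the GRCm38.p6 annotation, were in DJ-1 KO OVA at 0.377 (0.289 to 0.496) and 0.394 (0.286 to 0.546) times their WT OVA level in Retnla-high cells and 0.122 (0.0696 to 0.199) and 0.236 (0.152 to 0.351) in the others. With Park7 set aside, 3 of 17 genes below 0.4 in Retnla-high cells lay on chromosome 4, or 17.6%. Among genes below 0.5 it was 6 of 57, or 10.5%, and among those past 1.5-fold lower 26 of 363, or 7.16%, both with Park7, against 6.44% of the genes measured. In the other Sftpc cells 13 of 164 genes below 0.4 lay there, or 7.93%.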

How the data were processed

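Single-cell libraries were made from total lung cells with the Chromium Single Cell 3′ v3 kit, per the labels' protocols. The deposited files hold raw UMI counts per gene and cell barcode for 27998 genes, which the authors made with Cell Ranger and STAR on mm10, per the submitters' processing notes, and in a run whose matrices, per the file headers, name software version 3.1.0. The DJ-1 KO OVA, WT OVA and WT PBS libraries held 4666, 6406 and 4556 barcodes and 17339386, 24438516 and 26548669 UMIs. Kept cells had no fewer than 200 genes and no more than 20% mitochondrial UMIs, less the smaller cell of each barcode in both DJ-1 KO OVA and WT PBS, which left 4441, 6092 and 3908.

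UMIs were summed over the cells of a group and scaled to 1000000 UMIs (CPM). A gene was measured with at least 50 UMIs over both sums compared and counted past 1.5-fold. Where a group held 0 UMIs, a bound used a floor of 3 UMIs per group. B and T cells were cells with at least 3 UMIs of their markers and served only for free RNA. Doublets were not removed, and Scrublet (scanpy 1.11.5) served as an alternative. The calculations, done in Python 3.11.15 with NumPy 2.4.6 and SciPy 1.17.1, were tested on simulated data.

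The members and the gene lists were chosen with earlier results of these data known. Of 479 genes on 36 lists, 473 were found. Besides list members, genes were named by rank among those with at least 100 UMIs and a CPM of at least 0.5 times that of the other kept cells: the 20 highest and 10 lowest ratios in DJ-1 KO OVA, the 10 highest and 5 lowest in WT OVA, and the 10 highest and 10 lowest between the Retnla-high cells of the libraries. Mitochondrial, ribosomal, haemoglobin, immunoglobulin and unnamed genes were left out of the ranking, and 1 gene named by rank is not reported here. Alternatives changed the Retnla, Sftpc and mitochondrial limits, shared barcodes, doublets, cells with Ptprc, depth, scaling and the UMI minimum. Leaving out the highest cell of each gene was added after seeing the data. Promoter sequences were not analysed here.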

Additional observations from a re-analysis of the deposited data

Results flagged for a closer look

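Cells that the gate would have taken as Retnla-high were present among the smaller cells of shared barcodes in WT PBS, 59 in number. They are not used in any comparison, and their source was not tested.

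Of 5978 genes with at least 50 UMIs in each contrast of Retnla-high with other Sftpc cells, some lay past 1.5-fold in opposite directions. Of 484 genes higher in DJ-1 KO OVA, 53 were lower in WT OVA, where 13.0% of all 5978 were lower. Of 575 lower in DJ-1 KO OVA, 11 were higher in WT OVA, where 6.19% of all were higher. Genes of these 53 and 11 that are on the lists or were named by rank are given here. The difference between the libraries was not tested. Dcn, the fibroblast proteoglycan decorin, was at 30.1 times in DJ-1 KO OVA, where 1 cell held 94.6% of its UMIs in Retnla-high cells, and at 0.202 times in WT OVA. In Retnla-high cells of WT OVA 6 of the 8 fibroblast markers were at 0 and all 8 summed to 4.84 CPM, so the ratio of Dcn there rests on very few UMIs. Dcn was at 0.598 times in DJ-1 KO OVA without shared barcodes, and at 1.22 times in WT OVA without Scrublet doublets and 1.03 times with cells weighted alike. Sprr1a, a cornified envelope protein, was at 3.44 times in DJ-1 KO OVA and 0.555 times in WT OVA, where thinning gave 2.91 times. Lgals1, galectin 1, was at 3.002 times in DJ-1 KO OVA, where 1 cell held 61.8% of its UMIs, and at 0.292 times in WT OVA. Its ratio in DJ-1 KO OVA was 0.149 without shared barcodes, 0.460 after thinning, 0.772 with a Sftpc limit of 5% and 0.701 with cells weighted alike. S100a6, a calcium-binding protein, was at 1.88 times in DJ-1 KO OVA and 0.402 times in WT OVA, where 1 cell held 77.3% of its UMIs. Its ratio in DJ-1 KO OVA was 0.392 without shared barcodes and 0.675 without cells holding a Ptprc UMI. Irf9, part of the interferon-responsive complex ISGF3, was at 2.11 times in DJ-1 KO OVA and 0.618 times in WT OVA. Pglyrp1, a peptidoglycan recognition protein, was at 1.56 times in DJ-1 KO OVA and 0.381 times in WT OVA. Without shared barcodes neither Irf9 nor Pglyrp1 was among the measured genes past 1.5-fold higher in DJ-1 KO OVA.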

How the results depend on the processing

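No paired analysis was possible because each group has 1 library, all labelled replicate 1, and no library could be left out in turn. The share of Retnla-high cells stayed within its interval under 22 of 27 alternatives, but several of these could not move it. In WT PBS no Sftpc cell passed 0.147%, so the changed Retnla limits and leaving out cells gave 0 again. The settings on shared barcodes did not touch WT OVA, and Scrublet marked 0 Sftpc cells of DJ-1 KO OVA. The share was 53.4% for DJ-1 KO OVA and 2.65% for WT OVA with a Retnla limit of 2%, and 8.42% in WT OVA with a limit of 0.5%. It was 58.8% in DJ-1 KO OVA without shared barcodes, and 15.6% in WT PBS with their smaller cells kept. The cause of these and the following changes was not tested, except that thinning and higher UMI minimums leave fewer genes.

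Of Retnla-high over other Sftpc cells of DJ-1 KO OVA, genes past 1.5-fold higher numbered 323 with a Retnla limit of 2%, 294 without shared barcodes, 75 after thinning, 1101 with at least 20 UMIs and 120 with at least 200, and lower ones 348 without shared barcodes, 88, 1073 and 96. In WT OVA the higher ones numbered 1019 with a Retnla limit of 2%, 328 after thinning, 1130 with at least 20 UMIs and 148 with at least 200, and the lower ones 938 with a Retnla limit of 0.5%, 596, 2252 and 375. Between the Retnla-high cells of DJ-1 KO OVA and WT OVA, the higher ones numbered 606 without shared barcodes, 117 after thinning, 1929 with at least 20 UMIs and 196 with at least 200, and the lower ones 237, 74, 763 and 83, and 576 when centred on the median gene.

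Ratios of named genes, taken over all alternatives, stayed within their counting interval in 4260 cases and moved out of it in 489. Another 34 reversed, which was counted only for ratios past 1.5-fold. Of the medians of lists 659 stayed close, 253 moved and 1 reversed. In DJ-1 KO OVA, thinning gave log2 ratios of -1.12 for Mcm6, 2.46 for Arhgef38, -0.31 for Stmn1, -0.54 for Anxa1 and -1.12 for Lgals1. Leaving out shared barcodes gave -0.74 for Plac8, Top2a and Dcn, -0.0052 for Stmn1, -2.74 for Lgals1 and -1.35 for S100a6. A Retnla limit of 2% gave -0.76 for Plac8, -0.20 for Il6 and -0.016 for Anxa1, and a Sftpc limit of 5% gave -1.15 for Plac8 and -0.37 for Lgals1. Leaving out cells with a Ptprc UMI gave -1.81 for Plac8 and -0.57 for S100a6, and weighting cells alike gave -0.43 for Plac8 and -0.51 for Lgals1. In WT OVA, thinning gave 0.22 for Acsl3 and 1.54 for Sprr1a, leaving out the highest cells gave -0.15 for Hspa1b, leaving out Scrublet doublets gave 0.29 for Dcn and weighting cells alike gave 0.037 for Dcn. Between Retnla-high cells of DJ-1 KO OVA and WT OVA, leaving out shared barcodes gave -0.037 for Mcm6, -1.19 for Top2a, Dcn and Lgals1, -1.26 for S100a6 and a median of -0.11 for cell cycle genes. Leaving out cells with a Ptprc UMI gave -0.45 for Dcn. Thinning gave 0.53 for Arhgef38, -1.06 for Acsl3 and -0.47 for Cldn4. Thinned values of low genes rest on few UMIs.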
